A study of Mus musculus with 2 samples.

Results

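B1-like cells of the mouse heart were taken as the droplets that held transcripts of at least 3 of 6 genes, Bhlhe41, Zbtb32, Ctla4, Cd9, S100a6 and Nid1, among droplets with at least 2000 UMIs (unique molecular identifiers, which count mRNA molecules once each), at most 10% of them mitochondrial, and at least 1 UMI of the B cell receptor subunit Cd79a. They numbered 757 of 5688 Cd79a cells, 177 of 2077 in the neonatal and 580 of 3611 in the adult library. Both libraries came from wild-type C57BL6/J mice without treatment, the neonatal one from pooled males and females of 2 weeks (15 days in the sample title) and the adult one from males of 8 weeks. For each age, B cells without dead cells and doublets were sorted from the pooled hearts of 6 mice after the same digestion and on the same day, and 1 Chromium Single Cell 3′ library was made. A difference between the ages is therefore also a difference between 2 libraries, which cannot be told apart, and no value below has a replicate check. All intervals are exact 95% intervals and cover counting error only. The libraries held 26866958 and 49500780 gene UMIs over all barcodes.

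B1 cells are an innate-like B cell lineage laid down largely before and soon after birth. They renew themselves in the periphery, are abundant in the body cavities and secrete natural IgM, and the B1a subset carries CD5 on its surface. In contrast to follicular (B2) cells they carry little IgD, CD23 (Fcer2a) and CD21 (Cr2) and more CD43 (Spn), and in the cavities CD11b (Itgam). BHLHE41 and ZBTB32 are transcription factors linked to the maintenance of B1a cells and CTLA4 is an inhibitory receptor, whereas CD9 is a tetraspanin, S100A6 a calcium-binding protein and NID1 a basement membrane protein.

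Before the comparisons, several properties of the gated droplets were measured, because the rule needs UMIs and so favours droplets that hold many. Gated cells had a median of 15881 UMIs (neonatal) and 16550 UMIs (adult), against 5821.5 and 5150 in the other Cd79a cells. All levels below were therefore summed over cells with 9874.4 to 36995.8 UMIs, a range that held 141 gated and 222 other cells of the neonatal library and 431 and 546 of the adult library. Within it the medians still differed, 15881 against 12276.5 UMIs in the neonatal and 16321 against 13099.5 in the adult library. Barcodes with at least 500 UMIs in both libraries numbered 110. They made up 45 of the 177 neonatal gated cells (25.4%) and 39 of the 580 adult ones (6.72%), but 16 of 1900 and 6 of 3031 other cells. On these barcodes of gated cells the opposite library held a median of 2.14% (neonatal cells) and 1.002% (adult cells) of the cell's own UMIs. UMIs of at least 2 markers of one other cell type were present in 23 neonatal (12.99%) and 54 adult (9.31%) gated cells, and in 1.47% and 1.12% of the other cells. Values without the shared barcodes are given at the end.

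The number of gate genes per cell is plotted for both libraries. In the neonatal library 1305 cells held a UMI of none of the 6 genes, 473 of 1, 122 of 2, 63 of 3, 51 of 4, 42 of 5 and 21 of all 6. The adult library gave 1937, 788, 306, 201, 192, 115 and 72 cells in the same order. The distribution had no gap at the threshold, so the gate marks a range and not a closed class: 122 neonatal and 306 adult cells lay just outside it. Gated cells made up 8.52% (7.36 to 9.81) of neonatal and 16.1% (14.9 to 17.3) of adult Cd79a cells. With each cell thinned to 5000 UMIs and shallower cells left out, the shares were 5.03% (77 of 1532 cells; 3.99 to 6.24) and 11.6% (248 of 2139; 10.3 to 13.03). At 2000 UMIs, where few cells keep 3 gate genes, they were 1.20% (0.780 to 1.77) and 1.72% (1.32 to 2.20), and those intervals overlapped. Without the shared barcodes they were 6.55% and 15.2%. The adult share was thus the higher one at every depth, with the intervals apart at full depth and at 5000 UMIs but not at 2000. The setting of 5000 UMIs kept 1532 of 2077 neonatal but 2139 of 3611 adult cells. A larger part of the adult cells thus left the denominator, and the part of this loss in the shares was not tested. Thinning to 2000 UMIs kept every cell.

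**Figure D1:**
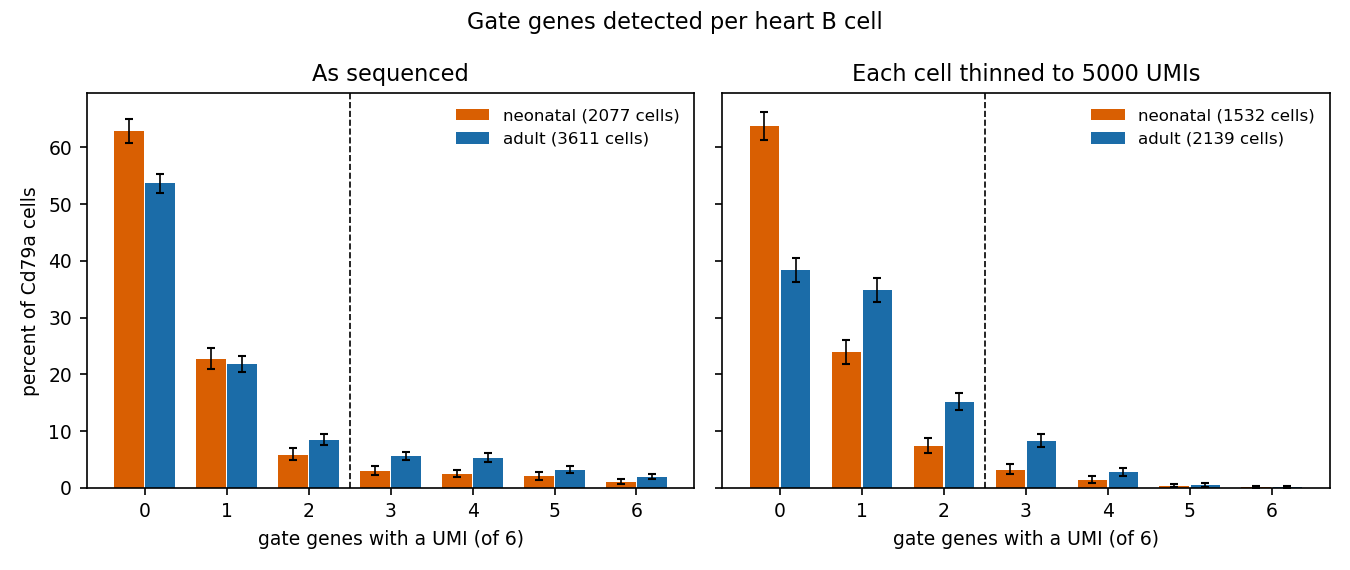
Percent of Cd79a cells (y axis) by the number of the 6 gate genes with a UMI (x axis), in the neonatal (orange) and adult (blue) library, as sequenced (left) and with each cell thinned to 5000 UMIs (right); error bars are exact binomial 95% intervals and the dashed line marks the gate. The share falls smoothly across the gate, and 16.1% of adult against 8.52% of neonatal cells lie to its right as sequenced.

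Among the gate genes themselves, which chose the cells and are described only, S100a6 was detected in 95.5% of neonatal and 95.9% of adult gated cells, and Cd9 in 80.8% and 79.7%. Zbtb32 was detected in 73.4% and 54.0%, Nid1 in 66.1% and 66.4%, Bhlhe41 in 53.7% and 57.6%, and Ctla4 in 42.4% and 56.6%. Among the other cells S100a6 was present in 14.5% and 27.6%, and Bhlhe41 in 14.8% of neonatal but 3.56% of adult cells. Near-empty droplets held S100a6 RNA as well, enough to give a UMI in 2.13% and 2.99% of droplets of that load, and in at most 0.468% for any of the other 5 genes.

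Each gate gene was also compared between cells chosen by at least 3 of the 5 remaining genes and all other cells of the UMI range, so that its own counts played no part in the choice. Every one of them was higher in the chosen cells in both libraries. For Zbtb32 the level was 115 against 17.2 CPM (UMIs of the gene per 1000000 gene UMIs of the group) in the neonatal library and 49.8 against 11.5 in the adult library. The ratios were 2.74 (2.33 to 3.17) and 2.12 (1.80 to 2.45) on the log2 scale. Bhlhe41 gave the lowest ratio of the 6 in neonatal cells, 0.59 (0.18 to 0.997), with 46.0 against 30.6 CPM, and a ratio of 1.53 (1.26 to 1.80) in adult cells. The remaining 4 genes lay between 1.33 (S100a6, adult) and 2.31 (S100a6, neonatal). The ratios use only the 6 genes that defined the gate, so they describe how these transcripts went together and test nothing.

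Across 7583 genes tested in both libraries (genes whose summed UMIs would give at least 20 in the gated cells at equal level, gate genes left out), 73 genes (0.963%) were at least 2 times higher in B1-like than in other cells of the same library in both libraries, and 34 (0.448%) at least 2 times lower. In single libraries the calls numbered 188 higher (2.47%) and 207 lower (2.72%) of 7622 genes in the neonatal and 189 (2.01%) and 155 (1.65%) of 9422 in the adult library. The median ratio over the genes tested was -0.13 on the log2 scale in either library, so that the typical gene lay slightly lower in the gated cells. With scaling by the median of ratios, which removes this shift, 88 genes were higher and 20 lower. The gate chose the cells on transcripts of the same droplets, so these counts describe the cells and test nothing. Genes past the threshold in the neonatal library had the same sign in the adult one for 336 of 369, and the ratios of the 2 libraries correlated across genes (Pearson's r 0.611, Spearman's rho 0.528), genes being no independent replicates.

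**Figure D2:**
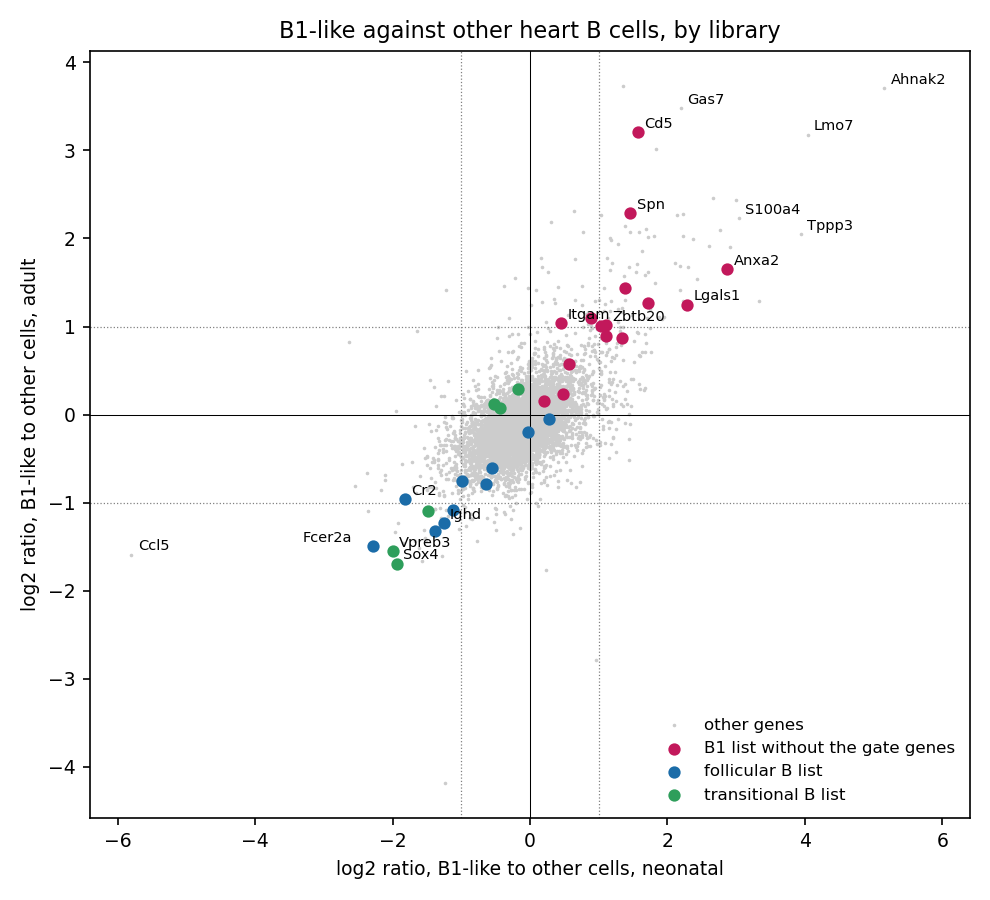
Log2 ratio of B1-like to other Cd79a cells for each of 7583 genes in the neonatal (x axis) and adult (y axis) library, with members of 3 marker lists coloured and dotted lines at 2 times higher or lower. The B1 list lies to the upper right and Fcer2a, Ighd, Satb1, Vpreb3 and Sox4 lie to the lower left; Ccl5 rests on few cells.

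The largest differences shared by the libraries were those of Ahnak2, a giant scaffold protein related to AHNAK, and Lmo7, a LIM domain protein of the actin cytoskeleton. Ahnak2 reached 34.9 CPM in neonatal and 32.7 in adult B1-like cells, against 0.978 and 2.505 in the other cells. The log2 ratios were 5.16 (3.56 to 7.46) and 3.71 (3.06 to 4.42). Lmo7 was at 42.9 and 30.3 CPM against 2.61 and 3.34, with ratios of 4.04 and 3.18. With every cell of the range thinned to 9874 UMIs, an Ahnak2 UMI was found in 21.3% of neonatal and 20.2% of adult B1-like cells but in 0.901% and 2.20% of others, and Lmo7 in 26.2% and 19.0% against 2.25% and 3.11%. Without thinning the shares were 25.5% and 26.0% against 0.901% and 2.56% for Ahnak2, and 32.6% and 29.5% against 3.15% and 4.396% for Lmo7. Each gene was thus detected in a minority of B1-like cells, and in few of the others.

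The other genes among the 12 with the largest ratios common to both libraries were Tubb6 (a beta tubulin), Prkar2b (a regulatory subunit of protein kinase A), Cish (a feedback inhibitor of cytokine signaling), S100a4, Gas7, Plscr1 (a phospholipid scramblase), Oosp1, Tppp3 (a tubulin-binding protein), Fgl2 and Slc7a7 (an amino acid transporter subunit). S100a4 stood at 301 CPM in neonatal and 136 in adult B1-like cells, against 36.5 and 29.0 in the others, ratios of 3.04 and 2.23. Tppp3 stood at 69.9 and 77.4 against 4.56 and 18.7. Its transcripts came from 28 neonatal and 86 adult cells of the range, so the gene was high in a minority of the gated cells. Cish stood at 62.7 against 13.4 in neonatal and at 13.9 against 2.86 in adult cells, a similar ratio (2.23 and 2.28) around levels that differed between the libraries.

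Prdm1, which encodes BLIMP1, the repressor that drives antibody secretion, was at 18.3 against 5.54 CPM in the neonatal (1.72; 0.89 to 2.62) and 27.6 against 8.95 in the adult library (1.62; 1.24 to 2.02). Its UMIs lay in 21 of 141 neonatal and 107 of 431 adult B1-like cells. Fam46c, also named Tent5c and coding for a poly(A) polymerase that lengthens mRNA tails, gave 2.29 and 1.68. These were the 2 of 7 plasma cell genes past the threshold in both libraries (background 0.963%). Mzb1, a chaperone of antibody assembly and the most abundant of the list, was at 675 against 490 and at 705 against 519 CPM (0.46 and 0.44), whereas Xbp1 (-0.11 and -0.51), Irf4 (-0.14 and -0.36) and Txndc5 (-0.37 and -0.17) had negative ratios and Jchain differed in sign. Cd80, a ligand for CD28 and CTLA4, stood at 19.9 and 28.2 CPM against 6.19 and 6.56. The transcription factors Sox5 and Nfil3 were higher as well, Sox5 at 50.03 against 14.3 in neonatal and at 58.7 against 14.4 in adult cells.

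**Figure D3:**
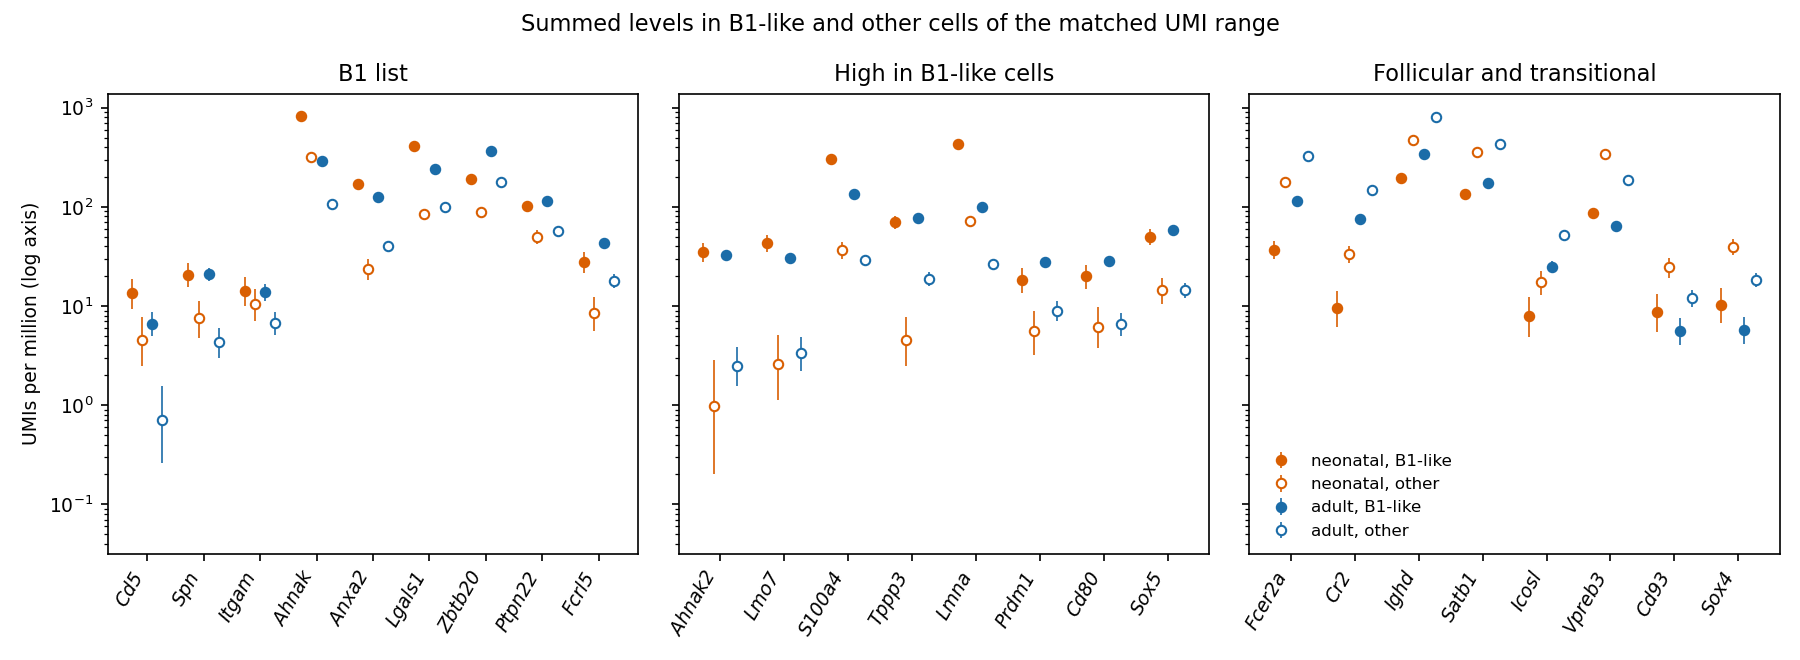
CPM (log axis) of selected genes summed over B1-like (filled) and other (open) cells of the matched UMI range in the neonatal (orange) and adult (blue) library, with exact Poisson 95% intervals. Ahnak2, Lmo7, S100a4 and Anxa2 are higher and Fcer2a, Ighd, Satb1, Vpreb3 and Sox4 lower in B1-like cells of both libraries, while the intervals of neonatal Itgam overlap.

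Beside the gate genes, 16 further genes known from B1 cells were compared. They were listed with earlier results of these data known, so they describe the cells and are no independent check of the label. Of the 15 tested in both libraries all had a positive ratio in both, 8 passed the threshold in both (background 0.963%) and none was lower, and the median ratios were 1.11 and 1.04, against -0.13 over all genes. Cd5 was at 13.5 and 6.61 CPM in B1-like cells and at 4.56 and 0.716 in others, ratios of 1.56 (0.63 to 2.58) and 3.21 (1.99 to 4.72). Spn (CD43) was at 20.6 and 21.0 against 7.498 and 4.29, ratios of 1.46 and 2.29. Anxa2, a calcium-dependent membrane protein, gave 2.87 and 1.65, the galectin gene Lgals1 2.29 and 1.25, Ahnak 1.38 and 1.44, the Fc receptor-like gene Fcrl5 1.71 and 1.27, the zinc finger gene Zbtb20 1.11 and 1.02, and the phosphatase gene Ptpn22 1.03 and 1.01. Plac8 (0.89 and 1.10), Vim (1.34 and 0.87) and the IL-5 receptor gene Il5ra (1.10 and 0.89) passed in 1 library only. The remaining genes, Arid3a, Cd36, Pdcd1lg2 and Tnfrsf13b, had ratios between 0.16 and 0.58.

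Itgam, the CD11b gene which marks B1 cells at the protein level, gave a neonatal ratio that depended on the choice of cells. It was at 14.3 against 10.4 CPM in the neonatal library, a ratio of 0.45 whose interval held 0 (-0.27 to 1.19), and at 13.7 against 6.68 in the adult library (1.04; 0.56 to 1.53). The neonatal ratio was -0.15 without the shared barcodes, -0.68 with cells chosen without S100a6 and 1.94 without droplets that held markers of another cell type. It was 2.68 against other cells with none of the 6 gate genes, 2.05 with a gate of at least 2 genes and 1.45 without a UMI range. Neonatal cells with 0, 1 and 2 gate genes were at 2.24, 6.85 and 21.9 CPM, and those with 3, 4 and 5 or 6 at 22.9, 11.6 and 8.79, so the level was highest on either side of the gate. At 9874 UMIs, Itgam was detected in 6.38% of neonatal and 12.1% of adult B1-like cells, against 5.86% and 5.68% of the others, and without thinning in 9.93% and 19.5% against 6.31% and 7.69%.

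Markers of conventional B cells lay in the opposite direction. Of 10 follicular genes 4 were at least 2 times lower in both libraries (background 0.448%), none was higher, and the medians were -1.06 and -0.88. Fcer2a (CD23) was at 36.9 against 180 CPM in neonatal and at 115 against 323 in adult cells, ratios of -2.28 (-2.62 to -1.97) and -1.49 (-1.60 to -1.38). Ighd, the constant region of IgD, was at 197 against 469 and at 342 against 804, with nearly equal ratios of -1.25 and -1.23. Satb1, a chromatin organizer, gave -1.39 and -1.32, and Icosl, the ligand of ICOS, -1.12 and -1.08. Cr2 (CD21) gave -1.82 and -0.96, the second just short of the threshold, and Ccr7, which directs cells to lymph nodes, -0.99 and -0.75. Klf2 and Cxcr5 were nearest to equal levels (0.27 and -0.05 for Klf2, -0.02 and -0.20 for Cxcr5). As medians over cells, the follicular list took 28.0 of 10000 UMIs in neonatal B1-like cells and 39.5 in the others, and 24.98 against 44.1 in the adult library.

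The gated cells nevertheless differed between the libraries in these receptors. At 9874 UMIs, transcripts of both Cr2 and Fcer2a were detected in 2.84% (0.778 to 7.10) of neonatal and 23.7% (19.7 to 28.0) of adult B1-like cells, and of neither gene in 77.3% (69.5 to 83.9) and 35.96% (31.4 to 40.7). Among the other cells both were detected in 15.8% and 58.1%, and neither in 32.9% and 8.61%. In each library B1-like cells therefore held these transcripts less often than their neighbours.

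The transitional list, which marks recent emigrants from the bone marrow, had 3 of 6 genes lower in both libraries (background 0.448%) and none higher. Vpreb3, a partner of the immature B cell receptor, was at 86.2 against 345 CPM in neonatal and at 64.6 against 189 in adult cells, ratios of -2.0 and -1.55. Cd93 gave -1.48 and -1.09 and the transcription factor gene Sox4 -1.93 and -1.69. Ly6d, Spib and Cd24a differed in sign between the libraries. The 34 lower genes also included Neurl3, Lrrk2, Zfp608, Smad7 (an inhibitor of TGF-beta signaling), Treml2, Chchd10, Rflnb and Wfdc21, with ratios between -1.97 and -1.33. Ccl5 ranked with them, but all 68 neonatal UMIs among the other cells of the range lay in 1 cell, and its sign turned when cells were chosen or counted otherwise.

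Marginal zone genes gave no common direction: 1 of 7 tested genes (Fcrl5, which the B1 list also holds) was higher (background 0.963%) and the medians were -0.08 and -0.10. Pan-B genes were held at near-equal levels, with Cd79a at 2219 against 2495 and at 2321 against 2641 CPM, Ms4a1 (CD20) at 1221 against 1278 and 1328 against 1156, and 0 of 6 past the threshold. Markers of other cell types in the UMI range were sparse. The macrophage list summed to 425 UMIs (169 CPM) in neonatal and 165 (21.0) in adult B1-like cells, and to 801 (261) and 234 (27.9) in the others, with Lyz2 the most abundant in neonatal cells and 167 of its 230 UMIs in 1 gated cell. Lyz2 also gave 659 UMIs in 10 neonatal other cells and 155 in 5 adult ones, 151 of them in 1 cell. It was among the 34 lower genes (-1.23 and -4.18). Without Lyz2 (chosen after its values were seen) the list was the higher one in B1-like cells, at 77.4 against 46.3 CPM in neonatal and 19.96 against 9.42 in adult cells. Cd68, a lysosomal protein of macrophages, was itself among the 73 higher genes (1.07 and 1.44), and the part of macrophage RNA in the other ratios was measured only by leaving out droplets with such markers. Fcgr1 was at 0 in adult B1-like cells and C1qa, C1qb, C1qc and Fcgr1 in neonatal other cells. The T cell list summed to 58 and 268 UMIs in B1-like cells, mostly of Lck, with Cd3e, Trbc1, Trbc2, Cd4, Cd8a and Foxp3 at 0 in the neonatal and Foxp3 in the adult group. Of the endothelial list 277 of 284 and 775 of 780 UMIs were Pecam1, which B cells express too, and Kdr and Tie1 were at 0 in both. The fibroblast, platelet, erythroid and cardiomyocyte lists gave at most 43 UMIs each in B1-like and 46 in other cells.

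The levels moved with the number of gate genes. In adult cells of the range, Ahnak2 was at 0 CPM in cells with none of the 6 genes, 4.78 with 2, 13.8 with 3 and 54.4 with 5 or 6, and in neonatal cells at 0, 2.99, 10.8 and 57.1. Fcer2a went from 437 in adult cells without a gate gene to 195 with 2, 169 with 3 and 66.0 with 5 or 6. For both genes, adult cells with 3 gate genes, just inside the gate, lay between those with 2 and those with 5 or 6. The other B1 genes together took a median of 10.3 of 10000 UMIs in adult cells with no gate gene, 25.03 with 2, 30.7 with 3 and 41.1 with 5 or 6, and 19.8, 38.3, 54.5 and 74.2 in neonatal cells. Depth moved with this number, from a median of 12523 to 18169.5 UMIs in adult and from 11286 to 17731 in neonatal cells of the range, and its part was not tested.

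**Figure D4:**
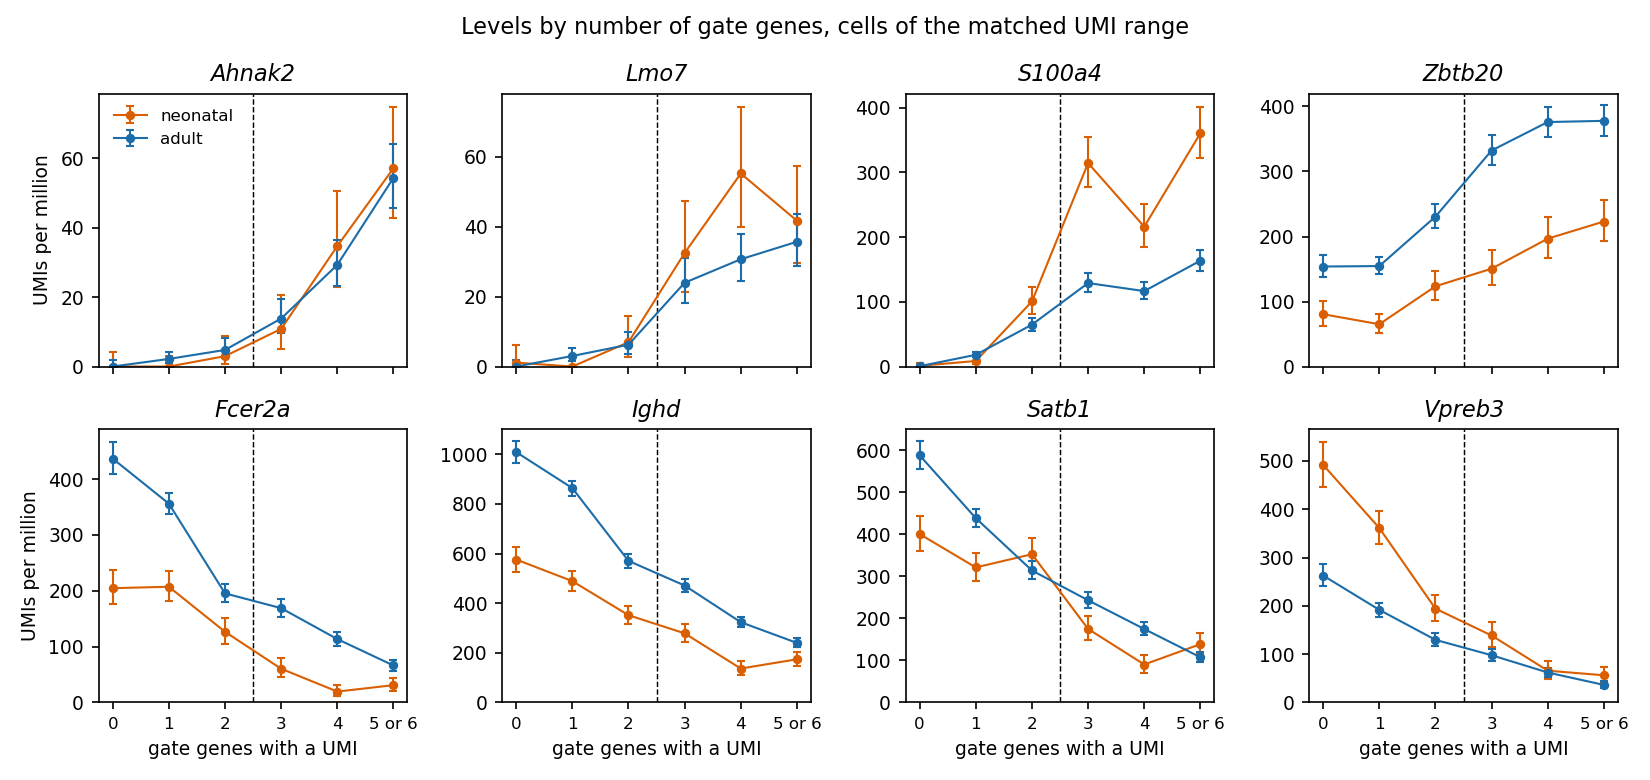
CPM of 8 genes (y axis, linear) in neonatal (orange) and adult (blue) cells of the matched UMI range with UMIs of 0, 1, 2, 3, 4 and 5 or 6 gate genes (x axis), with exact Poisson 95% intervals; the dashed line marks the gate. Ahnak2 reaches 57.1 and 54.4 CPM with 5 or 6 gate genes, and Fcer2a, Ighd, Satb1 and Vpreb3 decline across the gate.

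Immunoglobulin transcripts of B1-like cells were mostly unswitched. Ighm was at 4325 against 4065 CPM in the neonatal and 3613 against 4017 in the adult library, log2 ratios of 0.089 and -0.15 beside those of -1.25 and -1.23 for Ighd. The adult value turned on 1 cell: without an other cell that held 5466 Ighm UMIs, the other adult cells were at 3375, below the B1-like cells, and those with 0 or 1 gate gene were at 2879. No B1-like cell was left out for these values. The matching values of neonatal other cells were 4046 and 4144 CPM. Ighg3, a class that B1 cells can switch to without T cells, was detected in 12 neonatal and 47 adult B1-like cells of the range (40 and 122 UMIs), against 1 and 16 other cells (1 and 42 UMIs). In adult cells that was 15.5 against 5.01 CPM (1.63; 1.11 to 2.17). Igha lay in 5 of 141 neonatal and 41 of 431 adult B1-like cells, against 8 of 222 and 19 of 546 other cells. The large Ighg2c and Jchain sums among adult other cells came from few cells, 3271 of 3292 Ighg2c UMIs from 1. Lambda constant UMIs outnumbered kappa ones in 27.7% (20.5 to 35.8) of neonatal and 12.993% (9.97 to 16.5) of adult B1-like cells of the range, against 18.02% (13.2 to 23.7) and 6.96% (4.97 to 9.43) of the others. The lambda share was higher in B1-like cells at both ages, with the intervals apart in the adult library only. Over cells of all depths the shares were 24.3% (18.2 to 31.3) against 14.9% (13.3 to 16.6) in neonatal and 12.6% against 7.13% in adult cells, with the intervals apart in both.

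B1a cells are also known for antibodies against phosphatidylcholine, built from Ighv11-2 with Igkv14-126 or Ighv12-3 with Igkv4-91. A 3′ library reads V segments rarely, and over all Cd79a cells any Ighv UMI was found in 37.9% of neonatal and 49.3% of adult B1-like cells, against 29.6% and 37.6% of the others. Ighv11-2 was found in 5 of 177 neonatal (2.82%; 0.923 to 6.47) and 10 of 580 adult (1.72%; 0.830 to 3.15) B1-like cells, and in 0 of 1900 (upper bound 0.194%) and 2 of 3031 (0.0660%) others. Igkv14-126 was found in 3 and 12 B1-like and in 4 and 7 other cells. Both segments were present in 1 neonatal and 3 adult cells, all of them B1-like. These cells were few, but most of the Ighv11-2 cells of both libraries passed a gate that uses no immunoglobulin gene. Of the other pair, Ighv12-3 was found in 2 neonatal and 5 adult B1-like cells and in 2 and 2 others. Igkv4-91 was found in 1 and 6 B1-like and in 4 and 6 other cells.

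Signaling and adhesion genes were mixed within each family. Of 12 inhibitory receptor genes 4 were higher in both libraries (background 0.963%), of which Cd5, Fcrl5 and Ptpn22 were already counted with the B1 list and Cd300lf (2.11 and 1.73) was not, while Cd72 (-0.84 and -0.85) and Btla (-0.74 and -0.60) lay lower without passing. Among 18 integrins and homing receptors, Itgb1 (1.37 and 1.58) and the chemokine receptor gene Ccr1 (1.82 and 1.49) were higher (background 0.963%), and Cxcr4 (-0.87 and -0.79) and Ccr7 lay lower. Among 14 cytokine, receptor and Toll-like receptor genes only Csf2rb, the common chain of the IL-3, IL-5 and GM-CSF receptors, passed in both (1.12 and 1.78; background 0.963%). Il10, the cytokine of regulatory B cells, was detected at 9874 UMIs in 4.96% (2.02 to 9.96) of neonatal and 6.26% (4.17 to 8.98) of adult B1-like cells against 1.35% and 0.733% of others, and without thinning in 5.67% and 9.51% of B1-like cells, from 10 and 86 UMIs in all. The calcium-binding and cytoskeletal genes of the S100, annexin and related list were positive in both libraries for 18 of 18, with 5 past the threshold (background 0.963%), S100a4 and Lmna beside Anxa2, Ahnak and Lgals1, which the B1 list also holds, and medians of 1.19 and 0.66. Without the shared barcodes adult Anxa6 was at -0.02.

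Of 28 transcription factor genes tested, 2 were higher in both libraries (Prdm1 and Zbtb20), 3 lower (Satb1, Sox4 and Zfp318, a splicing regulator needed for IgD), and the medians were -0.33 and -0.30 (background 0.963% higher and 0.448% lower). Prdm1, Zbtb20, Satb1 and Sox4 were already counted with other lists. Bach2 (-1.47 and -0.82), Irf8 (-1.46 and -0.83), Bcl6 (-1.72 and -0.54) and Ebf1 (-0.87 and -0.69) were lower without passing in both. MHC class II genes had 9 of 9 negative ratios but lay close to the median of all genes in the neonatal library, with medians of -0.12 and -0.25. Of 14 cell cycle genes none passed the threshold in both libraries, while 3 were at least 2 times higher in the neonatal library alone (background there 2.47%). Ccnd2, a cyclin of the G1 phase and the most abundant of the list, was at 566 against 225 CPM in neonatal (1.33; 1.20 to 1.47) and 276 against 153 in adult cells (0.85; 0.75 to 0.95), and the proliferation marker Mki67 was at 59.96 against 25.4 CPM in neonatal (1.24; 0.83 to 1.65) and 31.4 against 26.4 in adult cells (0.25; -0.02 to 0.52). The study's list for CD11b+ cells was chosen on these samples and is no independent evidence, and it had 4 of 18 genes higher (background 0.963%) and none lower (0.448%).

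Because Bhlhe41 is one of the gate genes, the promoters of the higher and lower genes were searched for the site of this factor. Its family binds the palindromic E-box CACGTG. Whether the called genes move with Bhlhe41 itself was not tested. The promoter windows ran from 250 bases before to 50 bases after the start of each RefSeq transcript. Only the 250 bases before the start were searched, so any match lay upstream by construction. As the motif is a palindrome, 1 search covered both strands. The motif occurred in 4 of 76 windows (5.26%; 57 of 73 genes matched) of the higher and 1 of 37 windows (2.70%; 25 of 34 genes matched) of the lower genes, against 9.19% of 7714 windows of all genes tested and 6.02% of 32851 windows in the table. The motif, in capitals with 20 bases on each side, is shown for Bhlhe41 itself, for 3 higher genes and for the 1 lower gene.
Bhlhe41: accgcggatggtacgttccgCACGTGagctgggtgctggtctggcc
Prkar2b: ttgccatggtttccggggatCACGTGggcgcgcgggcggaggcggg
Ass1: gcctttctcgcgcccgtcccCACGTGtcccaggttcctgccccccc
Rap1gap: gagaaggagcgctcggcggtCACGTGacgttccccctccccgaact
Tmem108: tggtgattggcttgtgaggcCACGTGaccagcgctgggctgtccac
In build GRCm38.p6 these lie at chr6:145865548-145865593 (minus strand), chr12:32061332-32061377 (minus), chr2:31470214-31470259 (plus), chr4:137664685-137664730 (plus) and chr9:103761928-103761973 (minus), all upstream of the first exon. Prkar2b was at 49.2 against 6.19 CPM in the neonatal and 26.4 against 4.89 in the adult library, and Tmem108 at 24.2 against 52.8 and, with a log2 ratio of -1.10, lower in the adult library too. A match is a string of letters and shows no binding.

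B1-like cells with and without a Cd5 UMI, the transcript of the B1a marker, were set side by side within the gate. The UMI range held 28 neonatal and 42 adult gated cells with Cd5, and 113 and 389 without. The ratios of Ahnak2, Lmo7, Spn, Fcer2a, Cr2 and Plac8 did not pass 0.42 on the log2 scale in either library. Several intervals were wide, as for neonatal Cr2 (-1.77 to 1.48, from 5 UMIs with Cd5) and Ahnak2 (-1.26 to 0.47). Larger differences could therefore be missed. Adult Plac8 was slightly lower with Cd5 (-0.10; -0.19 to -0.02). In the neonatal library Sox5 (-1.45; -2.49 to -0.56), Zbtb32 (-0.70; -1.23 to -0.21), Ighd (-0.44; -0.80 to -0.09) and Itgam (-3.19; -8.54 to -0.62, from 1 UMI) were lower in the cells with Cd5, while the adult intervals of these genes held 0. So was S100a4 (-0.38; -0.66 to -0.10), whereas Zbtb20 (0.35; 0.04 to 0.65) and Cd9 (0.35; 0.02 to 0.68) were higher, again with adult intervals that held 0. Ighm gave 0.14 (0.08 to 0.21) in neonatal and -0.08 (-0.14 to -0.03) in adult cells. Ctla4 was higher with Cd5 in adult cells (0.32; 0.02 to 0.61), and its neonatal interval held 0. Zbtb32, Cd9, Ctla4 and S100a6 are gate genes, so UMIs that chose the cells enter their values, which are described only. S100a6 was lower in the cells with Cd5, by -0.50 (-0.59 to -0.41) and -0.60 (-0.70 to -0.50). Prdm1 was higher in them in adult cells (1.10; 0.60 to 1.59), with 45 UMIs in 42 cells, and gave -0.80 (-2.33 to 0.44) from 6 UMIs in neonatal cells. Absence of a Cd5 UMI does not show absence of CD5, since the 28 neonatal cells held 34 Cd5 UMIs and the 42 adult cells 52.

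Between the libraries, 163 of 7410 genes (2.20%) were at least 2 times higher and 180 (2.43%) at least 2 times lower in adult than in neonatal B1-like cells. Among the other cells the same comparison gave 187 (2.35%) and 220 (2.77%) of 7943 genes, so the number was no larger in B1-like cells. With median-of-ratios scaling the B1-like counts became 210 and 143. Of the 343 genes, 328 had the same sign in the other cells of the same libraries, and 178 were past the threshold there in the same direction. The age ratio of B1-like cells is therefore given beside that of the other cells, and age and library cannot be told apart in either. With only those neonatal cells that held Y-linked and no Xist transcripts, set against the male adult library, the B1-like counts were 162 and 150 and the neonatal share of B1-like cells was 10.8% (9.14 to 12.6).

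**Figure D5:**
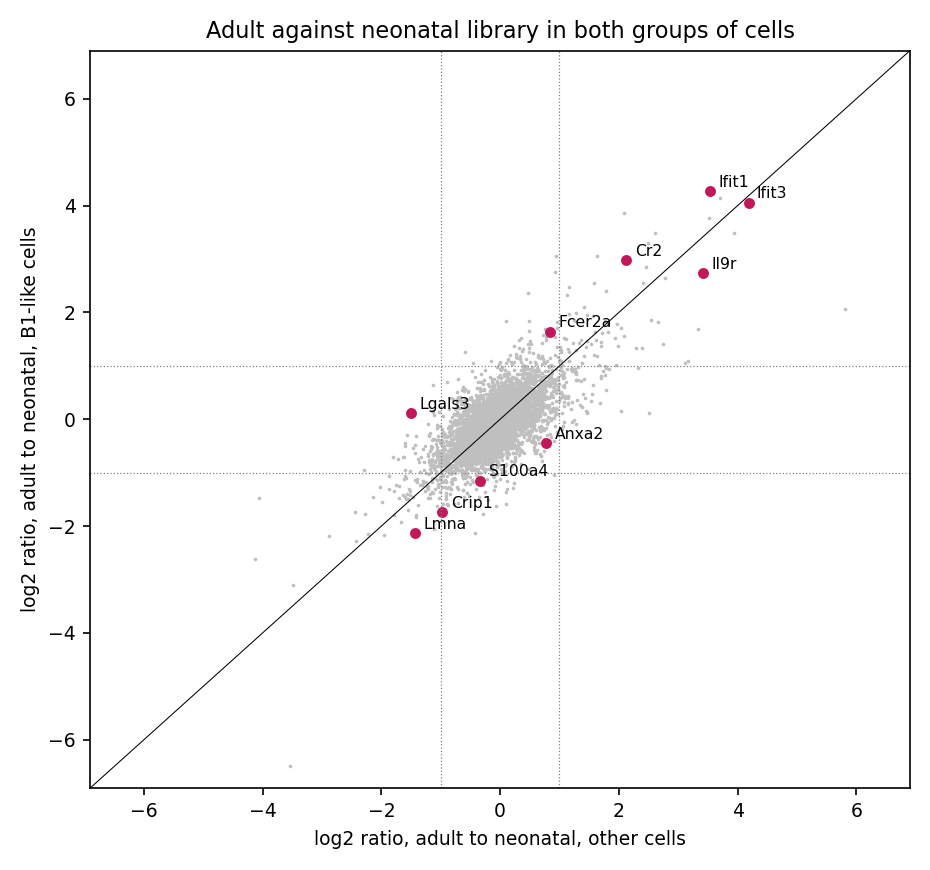
Log2 ratio of the adult to the neonatal library for each of 7291 genes in other cells (x axis) and in B1-like cells (y axis) of the matched UMI range, with the diagonal and dotted lines at 2 times. Most named genes moved alike in both groups of cells, while Anxa2 and Lgals3 lie off the diagonal.

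Several genes known to respond to type I interferon were among those with the largest adult ratios. Ifit3 was at 3.97 CPM in neonatal and 66.1 in adult B1-like cells, a ratio of 4.06 beside 4.19 in the other cells, and Ifit1 gave 4.27 beside 3.54 and Ifit2 4.15 beside 3.70. Of the 10 neonatal Ifit3 UMIs 8 lay in 1 cell, and without the shared barcodes the B1-like ratios were 5.796 for Ifit3, 5.65 for Ifit1 and 5.07 for Ifit2. Usp18, which limits interferon signaling, had 0 UMIs in neonatal and 124 in adult B1-like cells, and Cxcl10 0 and 136. Set against a floor of 3 UMIs for the group, this was 13.2-fold higher for Usp18 and 14.5-fold for Cxcl10. On the log2 scale the value against the floor was 3.73 for Usp18, beside a ratio of 3.87 in the other cells. Those held 0 and 140 UMIs of Cxcl10. The exact lower bounds in B1-like cells were smaller, 3.41 for Usp18 and 3.54 for Cxcl10. These genes were named for the size of their age ratio and not from a fixed list, and their transcripts came from a minority of the 431 adult cells, Ifit3 from 87, Usp18 from 50 and Cxcl10 from 12. Ighg2b and Derl3, a factor of endoplasmic reticulum degradation, completed the 8 largest ratios with Ifit3b. Ighg2b had 0 against 113 UMIs, 12.1-fold higher against the floor. Its log2 value was 3.59 (exact lower bound 3.27), beside 3.28 from 2 and 53 UMIs in the other cells. Derl3 gave 4.02 beside 3.57. Both rest on the UMI range: over all gated cells Ighg2b had 13 neonatal UMIs, all in 1 cell, and 212 adult ones (3.66 against 16.7 CPM), and Derl3 12, of which 8 lay in 1 cell, and 137, a ratio of 1.68. Fcer2a (1.64 beside 0.85) and Cr2 (2.98 beside 2.13) were also higher in adult B1-like cells.

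Of the 8 genes with the largest ratio in the other direction, S100a9, Stfa1, Lyz2 and Mt1 had most of their neonatal UMIs in 1 cell (147 of 148, 114 of 114, 167 of 230 and 46 of 65), and Fcer1g turned sign without droplets that held markers of another cell type. The remaining 3 genes were spread over many cells. Hspa1b, an inducible heat shock protein, was at 29.4 CPM in 25 neonatal and 1.27 in 9 adult B1-like cells, a ratio of -4.53 beside -1.75 in the other cells. Tppp, a tubulin-binding protein, gave -2.97 beside -0.45 and Pik3r5, a subunit of a phosphoinositide 3-kinase, -2.33 beside -1.09. In the other cells Hspa1b, Tppp and Pik3r5 fell below the minimum count for testing. The Tppp ratio there rested on 5 neonatal and 10 adult UMIs (-2.13 to 1.45). Hspa1b had 27 and 22 UMIs (-2.63 to -0.88) and Pik3r5 28 and 36 (-1.84 to -0.32). Whether the age ratios of these genes differed between B1-like and other cells was not tested. Among the S100, annexin and related genes, 6 of 19 were at least 2 times lower in adult B1-like cells (background 2.43%) and none higher (2.20%). Lmna was at 435 in neonatal and 99.0 in adult cells (-2.14 beside -1.44), Crip1 at 5011 and 1505 (-1.74 beside -0.97), and S100a4 gave -1.15 beside -0.33. Anxa2 had opposite signs, -0.44 beside 0.78, which was not tested. Within each library these genes were still the higher ones in B1-like cells, as the 18 of 18 positive ratios above give.

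Values without the shared barcodes kept the directions of the genes in the next sentences, but neonatal Itgam turned to -0.15. Ahnak2 gave 4.69 and 3.804, Lmo7 3.38 and 3.31, S100a4 2.71 and 2.12, Cd5 1.39 and 2.55, Spn 1.24 and 2.47, and Anxa2 3.25 and 1.58. Fcer2a gave -2.88 and -1.93, Ighd -1.42 and -1.58, Satb1 -1.58 and -1.84, and Vpreb3 -2.52 and -2.60. Of 262 single-gene ratios 76 moved beyond their counting interval, among them neonatal Tubb6 (3.71, from 2.66), adult Sox4 (-2.49, from -1.69), adult Cd93 (-1.97, from -1.09), adult Wfdc21 (-2.54, from -1.67) and Bach2 (-1.89 and -1.09, from -1.47 and -0.82). The UMI range, drawn anew from the gated cells that were left, was then 9415 to 20128.1 and 6213 genes were tested, so the counts reflect both changes. They were 54 genes higher, 44 of them among the 73, and 57 lower, 26 of them among the 34. All 73 and all 34 kept their direction in both libraries.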

How the data were processed

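Heart B cells of 2 ages were profiled as 1 droplet library per age. The authors aligned the reads to mm10 and counted UMIs with Cell Ranger (version 3.0.2 per the file headers), and the deposited matrices hold raw, unfiltered UMI counts for every gene and barcode without normalization. Rows of 3 antibodies held 3 and 2 UMIs and were not used. Everything after the counts was computed here in Python 3.11.15, using scipy 1.17.1 for intervals, numpy 2.4.6 and pandas 2.3.3 for sums and matplotlib 3.10.9 for plots. The gate, the UMI range (from the higher 10th to the lower 90th percentile of gated cells) and the sums of CPM are given with the results. With 1 library per age no test was possible, so no p-value is given. Ratios carry exact conditional binomial intervals, shares exact binomial and sums exact Poisson intervals, each at 95% and for counting error only. Thinning drew UMIs without replacement. No doublet caller was run. Droplets with markers of another cell type and the 5% with most UMIs were left out as alternatives instead. Named genes were the gate genes, those of 24 fixed lists, the 12 with the largest ratio common to both libraries in each direction and the 8 with the largest age ratio in each direction, hemoglobin and sex-linked genes left aside. Other genes named (Cd80, Sox5, Nfil3 and those of the promoter search) were chosen from the 107 called genes after their values were seen. The members and the lists were chosen with earlier results of these data known. The ratios were tested on simulated sums drawn as independent Poisson counts. Such sums hold no clumping of UMIs in single cells, so the simulation cannot show how the intervals hold for the real counts. Alternatives covered the gate, the depth, the mitochondrial limit, doublets, shared barcodes, scaling, the filter on low counts and the sex of the neonatal cells. Promoter windows came from RefSeq (GRCm38.p6). Some members of the lists are not reported here by name.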

Additional observations from a re-analysis of the deposited data

Results flagged for a closer look

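For 6 genes the ratio of B1-like to other cells had opposite signs in the 2 libraries with both counting intervals clear of 0, and the difference itself was not tested. On the log2 scale, Ighm gave 0.089 for neonatal and -0.15 for adult cells, Ly6d -0.44 and 0.080, Nr4a1, an early gene of receptor signaling, 0.13 and -0.39, Siglecg, an inhibitory lectin, -0.28 and 0.15, and the transcription factor gene Zeb2 -0.56 and 0.37. For Ighm, the adult sign turned without 1 other cell that held 5466 Ighm UMIs (3375 against 3613 CPM in B1-like cells). Jchain, the joining chain of secreted IgM and IgA, gave 0.95 and -2.79, but 15 of the 22 UMIs of neonatal other cells lay in 1 cell, as did 1021 of 3388 in the adult library. Droplets left out for more than 10% mitochondrial UMIs also held cells with at least 3 gate genes, 23 of 397 (5.79%) in the neonatal and 29 of 490 (5.92%) in the adult library.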

How the results depend on the processing

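No paired analysis was possible because each age had 1 library, and for the same reason no replicate could be left out. In the order neonatal share, adult share (percent of Cd79a cells), higher and lower genes, adult-higher and adult-lower genes, the values of 8.52, 16.1, 73, 34, 163 and 180 moved as follows. Wherever the gated cells changed, the UMI range was drawn anew (9179 to 16824 without the 5% of droplets with most UMIs, 9415 to 20128.1 without shared barcodes), so gene counts there reflect both changes. A gate of at least 2 genes gave shares of 14.4 and 24.5 and 277 adult-lower genes. At least 4 gave 5.49, 10.5 and 40 higher genes, and leaving S100a6 out of the gate 5.68, 10.97 and 45. Thinning to 2000 UMIs gave 1.20, 1.72, 3, 7, 7 and 7, with 260 genes left to test, and thinning to 5000, chosen after seeing the data, 5.03 and 11.6. Without the 5% of droplets with most UMIs the values were 5.32, 13.1, 36 higher and 104 adult-higher genes, and without shared barcodes 6.55 for the neonatal share and 57 lower genes. No UMI range gave 132 higher genes, other cells with none of the 6 genes 152 higher and 67 lower, and median-of-ratios scaling 20 lower. No minimum beyond 1 UMI gave 240, 148, 677 and 1313 genes, and an expected 50 UMIs 38 higher, 66 adult-higher and 83 adult-lower. The neonatal share among cells with Y-linked and no Xist transcripts was 10.8. Of 3639 alternative values of single genes 2663 stayed within their counting interval, 966 moved beyond it, and 10 of ratios past 2 times changed sign. Those were Ccl5 in the adult library (0.72 with at least 2 genes, 4.49 thinned to 2000) and the neonatal one (1.57 with no range), neonatal Lair1 (3.02 with at least 2 genes, 0.53 without droplets holding other markers, 0.31 with no range), neonatal Cd300a (3.14) and adult Itgax (-0.42) with at least 2 genes, the age ratio of Fcer1g (0.48 without droplets holding other markers) and neonatal S1pr3 (-0.00486 without the top 5%). Neonatal Itgam, not past 2 times (0.45), was negative with at least 4 genes (-0.56), without S100a6 (-0.68), without the top 5% (-0.68) and without shared barcodes (-0.15), and was 2.05 with at least 2 genes, 2.68 against cells with none, 1.94 without droplets holding other markers and 1.45 with no range. Where no construction shows the reason, the cause was not tested.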

Other observations

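Within the neonatal library, which pooled both sexes, transcripts of sex-linked genes separated the cells in part. Of 1279 cells with Y-linked and no Xist transcripts 138 (10.8%) passed the gate, and of 323 cells with Xist and no Y-linked transcripts 16 (4.95%). Among 80 cells with both kinds 16 passed (20%). Cells with neither kind numbered 395, of which 7 (1.77%) passed. The median depth was 6269 UMIs in cells with Y-linked and no Xist transcripts and 5543 in those with Xist and no Y-linked ones. It was 12559 in cells with both kinds and 5380 in those with neither. The part of depth in these shares was not tested.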
